A study of Mus musculus with 6 samples.

Results

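Ribosomal protein genes of the cytosolic ribosome were followed in ovaries of balb/c-nude mice, by RNA sequencing of 3 control and 3 tumor-bearing samples, all of day 80. A gene was a member if its symbol begins with Rpl or Rps and a digit, or is Rplp0, Rplp1 or Rplp2. Kinases whose symbols begin with Rps6k, and Rps19bp1, were left out. This rule took 90 of the 19423 genes in the deposited table, and it uses names only, no measured value. Of the 90 members, 30 are canonical small-subunit (40S) proteins, 43 are canonical large-subunit (60S) proteins, 3 form the P-stalk of the large subunit, and 14 carry the name of a paralog, retrocopy or pseudogene. The low-count filter kept 87 members. Rpl3l, Rpl10l and Rpl32l were not tested, and each held at most 13.0 estimated counts in any library.

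Mice of both groups share the balb/c-nude background, a strain that lacks a thymus and mature T cells. The tumor mice were injected under the skin with a line that the cell line label calls MBA-MD-231. The treatment labels of the 3 tumor samples end in 231, 232 and 233, and whether these are 3 lines or 1 is not settled by the labels. The labels do not give the animals' age or what the control mice received, and nothing states that samples came from separate animals, so the p-values measure only the spread between these samples. Ovarian markers were present: all 12 oocyte markers and all 8 granulosa markers passed the low-count filter.

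The ribosome reads mRNA on its small subunit and joins amino acids on its large subunit. Most of its proteins are needed in equal numbers, and their mRNAs are among the most abundant of most cells. Vertebrate ribosomal protein mRNAs usually begin with a C followed by a run of pyrimidines, the 5' terminal oligopyrimidine (TOP) motif, through which mTOR signaling and the LARP1 protein control their translation. In the ovary, growing oocytes store ribosomes for the early embryo, and luteal and granulosa cells use them for secretion.

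The start-site sequences below were chosen from members that have such a run at the annotated start, to show the motif and how near a copy lies to its parent. Each line gives 30 bases of the coding strand around the RefSeq start site on GRCm38.p6. Capitals mark the run of C and T that begins with C and lies at the start.
Rps6 chr4:86857347-86857376 (-): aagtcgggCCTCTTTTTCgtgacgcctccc
Rps26 chr10:128626481-128626510 (-): cgccggatCCTCTTTCgagtcttggctcca
Rps10 chr17:27635226-27635255 (-): cgcgcacgCCCCTTCCTTTCCagcctccgc
Rplp2 chr7:141447639-141447668 (+): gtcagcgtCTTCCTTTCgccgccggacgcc
Rps27 chr3:90213629-90213658 (-): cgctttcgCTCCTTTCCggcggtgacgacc
Rps27rt chr9:114982718-114982747 (-): atcccttgCTTTCCggcggtgacgacctcc
Rps27l chr9:66946079-66946108 (+): ccccgccgCCTCTatcccggaagttgctga
The first 4 and Rps27 are canonical members. The windows of Rps27 and its retrocopy Rps27rt share 19 bases in a row, while the longest stretch that the windows of Rps27 and its paralog Rps27l share is 4 bases.

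Promoter entries, which span 250 bases before to 50 bases after the start, were found for 68 members. A run of at least 5 pyrimidines that begins with C, on the coding strand and within 5 bases of the start, was present in 32 of the 68 (47.1%). Over all 27025 genes with an entry it was present in 21.2%. The letters CGGAAG, the core bound by ETS factors such as GABPA, lay on either strand in 61.8% of these members and 18.8% of all these genes. The letters AAGATGGC, the core of the YY1 motif, lay on either strand in 8.82% and 3.19%. A gene with several entries was counted if any of them matched. The entries had a median GC content of 56.6% in members and 52.75% over all genes. A match is a description of the letters and not of a bound factor. The median log2 fold change of canonical members, tumor over control, was -0.05 in the 27 with the pyrimidine run and -0.00 in the 29 without it.

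Levels between genes are compared as FPKM, the authors' values per transcript length and library size. Canonical members had a median of 882 FPKM over their control means and 877 FPKM over their tumor means. The 6 highest were Rpl23a, Rps26, Rpl41, Rpl10, Rpl35 and Rps27, from both subunits. Rpl23a was at 1945 ± 62.7 FPKM in control and 2189 ± 83.2 in tumor (SD, n = 3). Rps26, which lines the mRNA exit channel, was at 2183 ± 338 FPKM in control and 1717 ± 114 in tumor. Rpl10, which completes the subunit-joining face late in assembly, was at 1725 ± 73.0 and 1800 ± 41.4 FPKM. The 4 lowest members were Rpl3l, Rps23rg1, Rpl32l and Rpl10l, all under 0.6 FPKM as a mean in either group. Rpl3l and Rpl10l are known as striated-muscle and testis paralogs.

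The level of Rps6, the S6 protein that is phosphorylated downstream of mTOR, cannot be read from its own entry. Rps6 (chr4:86854099-86857367) held between 212 and 261 estimated counts per library, and the entry Rps6-ps4 (chr2:75138842-75322897) held between 17722 and 20842. Rps6-ps4 thus took 98.8% ± 0.06 of the summed counts of the 2 entries in control and 98.7% ± 0.11 in tumor (SD, n = 3). Of the 829 windows of 50 bases in the annotated Rps6 transcript, 84.6% occur unchanged in the annotated Rps6-ps4 transcript, and reads were 50 bases long. Reads from the 2 genes cannot be told apart over most of that length. The summed level was 1140, 1008 and 1005 CPM in the control replicates and 987, 1038 and 980 CPM in the tumor replicates, and the groups overlapped.

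Other members share sequence as well. A median of 41.8% of a member's windows occurred in at least 1 other gene annotated in GENCODE M21, mostly pseudogenes. The median in another protein-coding gene was 0%. Of 89 members with an annotated transcript, 33 had over 50% of their windows elsewhere. Rps18, Rpl3, Rpl36a and Rpl10, named after their values were seen, had 85.4% to 86.7% elsewhere, slightly more than Rps6. Estimated gene counts that were not whole, which arise when a read is divided between genes, occurred in 52.2% of members. Among all genes with counts they occurred in 44.9%. Shared windows did not always come with such counts. Rpl10a had 77.5% of its windows elsewhere, none in another protein-coding gene, and whole counts in all 6 libraries. The deposited transcripts carry RefSeq names, and which of the GENCODE genes the deposited counts covered was not checked.

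As a group, the members took shares of the estimated counts that differed between conditions by less than the spread of the libraries, while their TPM shares differed by more than it. They held 5.15%, 4.51% and 4.69% of all estimated counts in control replicates 1, 2 and 3. In tumor replicates 1, 2 and 3 they held 4.85%, 5.12% and 4.72%. The tumor mean lay 0.12 percentage points above the control mean, which is less than the SD of either group (0.33 and 0.21 percentage points). Control replicate 1 stood highest and tumor replicate 2 next. Without control replicate 1 the difference was 0.30 percentage points, above the tumor SD, and the remaining control shares lay below every tumor share. In TPM, which weighs short transcripts more, the members held 14.9%, 13.8% and 13.9% of the total in control and 15.3%, 16.2% and 14.9% in tumor. The TPM difference was 1.25 percentage points, above the SD of either group (0.63 and 0.64), and control replicate 1 (14.95%) lay just above tumor replicate 3 (14.94%). In bulk tissue, fewer cells of a type and less RNA per cell cannot be told apart.

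**Figure D1:**
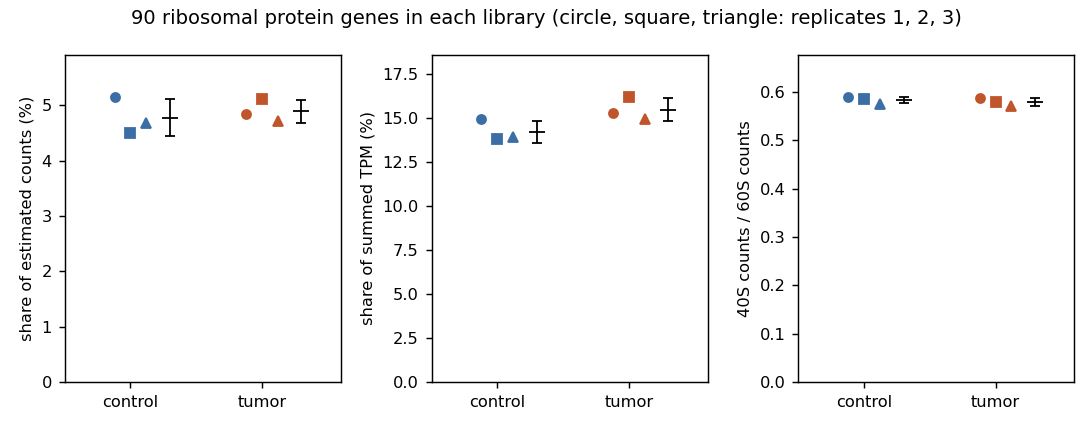
Share of all estimated counts (left, percent) and of summed TPM (middle, percent) held by the 90 members in each library. The ratio of 40S to 60S counts (right) uses canonical members only, with the P-stalk counted in 60S. The mean and SD of each group stand beside the points. Control and tumor libraries overlap in all 3 measures, and the ratio stays between 0.571 and 0.589.

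The balance of the subunits varied least. Canonical 40S members held 0.589, 0.585 and 0.576 times the counts of canonical 60S and P-stalk members in the control replicates. The tumor replicates were at 0.587, 0.580 and 0.571. The groups overlapped, and the difference of -0.004 was below the SD of each group (0.0066 and 0.0083). The sums leave out copies. Rps6-ps4 took 98.8% of the Rps6 pair's counts in control and 98.7% in tumor, and its counts are missing from the 40S sum. Rpl37rt took 62.8% of the Rpl37 pair in each group, and its counts are missing from the 60S sum.

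Single libraries stood apart in ways that touch these genes. Total estimated counts ran from 18278614 to 19238900. Of the 87 tested members, 57 had their highest level of the 6 libraries in control replicate 1, and the members' median lay 0.14 above their mean on the log2 scale there. Over all genes, tumor replicates 2 and 3 lay at -49.6 and -75.1 on the first principal component (52.1% of the variance). Tumor replicate 1, at 34.6, lay there among the controls (5.2 to 42.8). On the second component (28.8% of the variance) tumor replicate 1 stood apart, at -66.5 against -6.2 to 39.8 for the others. Adipocyte markers, summed over 8 genes, ran from 472 to 694 CPM (unscaled) in control and from 699 to 7981 in tumor, highest in tumor replicate 1. Oviduct markers, also 8, ran from 476 to 2099 in control and from 44.2 to 2111 in tumor. No marker in either list was at 0 in all libraries, and their part in the results was not tested beyond the fits with each list as a covariate.

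Without a correction for gene length, fold changes were small and centred on 0. The fit over all 15787 tested genes with edgeR gave the members a median log2 fold change, tumor over control, of -0.02, with 38 above 0 and 49 below. The median over all genes was -0.02 as well. Of the members, 86.2% lay within 0.25 of 0 on the log2 scale, against 44.1% of all genes tested, and 96.6% lay within 0.5, against 73.7%. The members are more abundant than most genes, with a median log2 CPM of 9.15 against 4.90, and their fold changes had a smaller median SE (0.11 against 0.17). Without control replicate 1 the members' median was 0.08, and without tumor replicate 1 it was 0.00. After correction for gene length, described below, the members' median was 0.29. By class, the median was 0.01 for the 30 members of the 40S subunit, -0.02 for the 43 of the 60S subunit and -0.05 for the P-stalk. The 11 tested paralogs and copies had a median of -0.21.

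**Figure D2:**
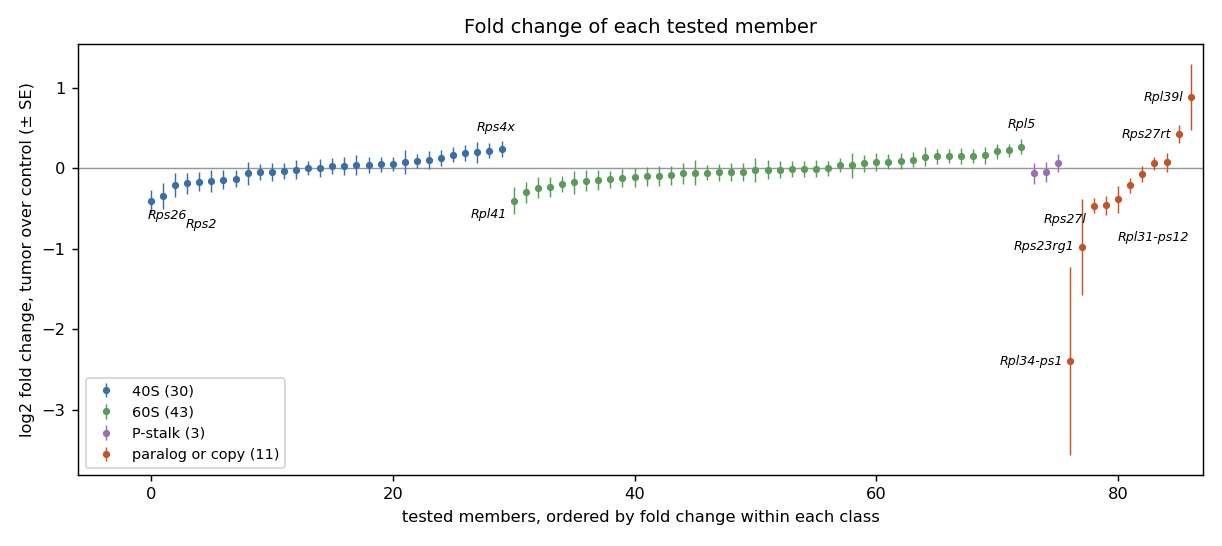
Log2 fold change, tumor over control, with its SE for the 87 tested members, ordered within the 40S, 60S, P-stalk and paralog or copy classes. All 76 canonical members lie between -0.41 and 0.27, and the widest values, from -2.40 to 0.88, belong to paralogs and copies of low level.

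One member changed at an adjusted p under 0.05, against 7.71% of all genes tested, and it was a paralog. No member was called higher, where 3.8% of all genes were, and 1 of 87 was called lower, where 3.91% were. At an unadjusted p under 0.05 there were 7 of 87 members (8.05%), against 31% of all genes. The control and tumor libraries did not overlap in 20 of 87 members (23.0%), 11 higher and 9 lower in tumor, against 38.1% of all genes. DESeq2 called 8 of 90 members, 5 higher and 3 lower, against 15.7% of all genes. The authors' deposited q, which the file headers credit to DESeq2, were under 0.05 for 8 members, 5 higher and 3 lower. Of all genes with a q, 14.7% were under 0.05. These q come from the same method and are not a second source. No canonical member passed the edgeR test.

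Rps27l (chr9:66944624-66949522, plus strand), a p53-responsive paralog of the small-subunit protein S27, was the member that fell. Its level was 70.6, 62.5 and 68.6 CPM in control replicates 1, 2 and 3 and 46.1, 47.2 and 52.8 CPM in tumor replicates 1, 2 and 3. Every tumor library lay below every control library. The log2 fold change was -0.46 ± 0.09 (SE), with an adjusted p of 0.0417 by edgeR. The call sat close to the threshold. The fold change was -0.41 without control replicate 1 (adjusted p 0.159), -0.42 without control replicate 3 (0.148), -0.44 without tumor replicate 2 (0.120) and -0.53 without tumor replicate 3 (0.120). In these fits edgeR called 0, 5, 3 and 0 of all genes tested. Rps27l stayed called without control replicate 2 (adjusted p 0.0343 by edgeR) and without tumor replicate 1 (0.0442). A correction for gene length moved the fold change to -0.11 (adjusted p 0.493). The adipocyte covariate, with which 0 of all genes were called, left the fold change at -0.45 (0.288).

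The parent Rps27 went the other way in its values, without passing the test. It was at 502, 413 and 431 CPM in control and 581, 479 and 482 CPM in tumor, and the groups overlapped (log2 fold change 0.20 ± 0.13, adjusted p 0.344 by edgeR). As a share of the summed counts of parent and paralog, Rps27l took 12.3%, 13.1% and 13.7% in control and 7.36%, 8.97% and 9.87% in tumor. All tumor shares lay below all control shares. Of the windows of Rps27l, 13.7% occur in another annotated gene, and none occurs in Rps27.

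Rps27rt, the retrocopy whose start window is printed above, was at 32.0, 26.7 and 28.1 CPM in control and 35.6, 41.5 and 39.2 CPM in tumor. The groups did not overlap, and the log2 fold change of 0.42 ± 0.11 did not pass edgeR's test (adjusted p 0.0665). DESeq2 gave an adjusted p of 0.0207, and the authors' deposited q, also from DESeq2, was 0.0248. Of its 50-base windows, 91.1% also occur in Rps27, so its level rests on how reads were divided between the 2.

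Rpl31-ps12, a copy of the 60S gene Rpl31, was at 128, 95.6 and 115 CPM in control and 83.3, 80.7 and 81.7 CPM in tumor. The groups did not overlap (log2 fold change -0.46 ± 0.12, adjusted p 0.0607 by edgeR), and DESeq2 called it (adjusted p 0.00927). Its share of the Rpl31 pair was 20.4% ± 1.82 in control and 16.3% ± 0.34 in tumor (SD, n = 3), although 62.0% of its windows occur in Rpl31 itself. Rpl36al, a retrogene of Rpl36a, was at 139, 137 and 130 CPM in control and 106, 119 and 126 CPM in tumor, without overlap and without a call (-0.21 ± 0.09, adjusted p 0.180). Rpl22l1, which stands in for Rpl22 in some cells, overlapped (-0.39 ± 0.17, adjusted p 0.178). Rpl37rt (0.06), Rpl7l1 (0.07) and Rps6-ps4 (-0.07) had log2 fold changes within 0.1 of 0. Of the windows of Rpl37rt, 38.7% occur in Rpl37. Of those of Rps6-ps4, 100% occur in Rps6, so the level of Rps6-ps4 rests on how reads were divided.

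The rarest copies gave too few counts for a fold change. Rpl34-ps1 held 16.3, 15.2 and 28.2 estimated counts in control, and 0, 10.8 and 0 in tumor. A count of 0 allows up to 3 counts, or about 0.156 to 0.163 CPM in these libraries, for counting error only. Rps23rg1 held 16.2, 13.7 and 11.4 counts in control and 13.2, 6.23 and 2.49 in tumor. Rpl39l, known from testis, held 8, 5 and 12 counts in control and 19, 12 and 16 in tumor. None of the 3 passed the test (adjusted p 0.220, 0.309 and 0.203 by edgeR). Rpl32l held at most 6.57 counts.

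**Figure D3:**
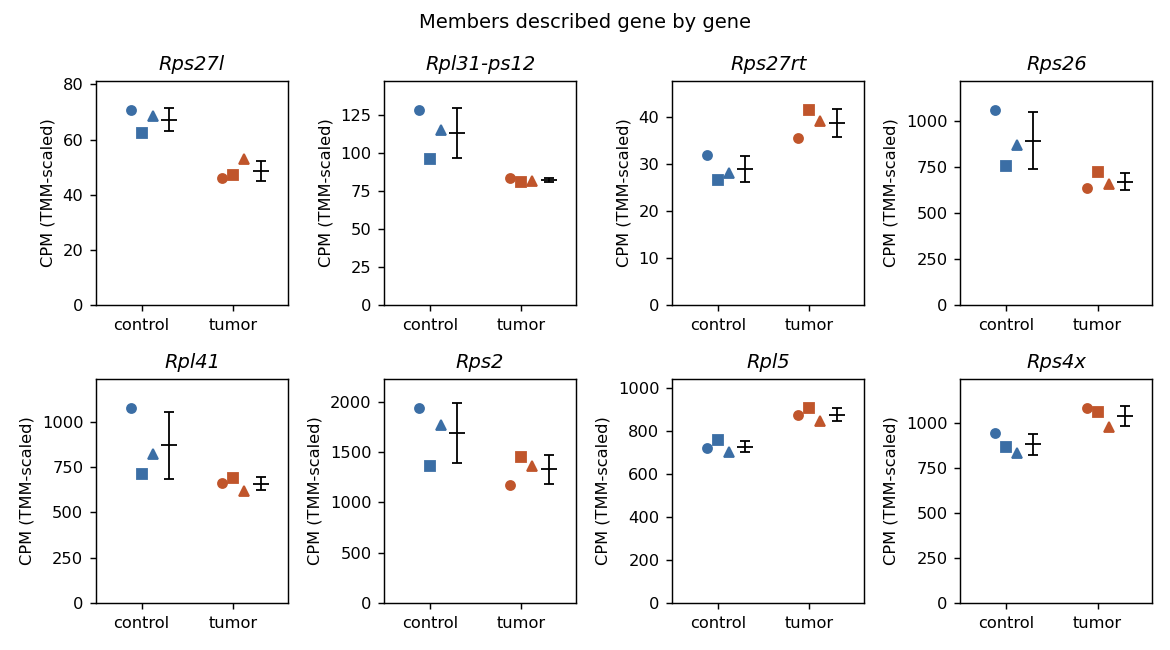
TMM-scaled CPM of 8 members in each library (circle, square and triangle for replicates 1, 2 and 3), with the mean and SD of each group beside the points. Rps27l, Rpl31-ps12, Rps26 and Rpl41 show no overlap with lower tumor values, Rps27rt, Rpl5 and Rps4x no overlap with higher tumor values, and Rps2 overlaps.

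Within the canonical 40S proteins, Rps26 and Rps2 had the lowest fold changes and Rps4x the highest. Rps26 was at 1057, 754 and 868 CPM in control and 634, 721 and 656 CPM in tumor. The groups did not overlap, control replicate 1 was the highest, and the log2 fold change of -0.41 ± 0.15 did not pass (adjusted p 0.117 by edgeR), while DESeq2 called it (adjusted p 0.0349). Without control replicate 1 it was -0.25. Rps2, a core protein at the mRNA entry channel, was at 1937, 1361 and 1765 CPM in control and 1171, 1451 and 1363 CPM in tumor. Its groups overlapped (-0.34 ± 0.17, adjusted p 0.208 by edgeR), and it was named after its values were seen. Rps4x, the X-linked S4 protein, was at 943, 864 and 833 CPM in control and 1082, 1057 and 976 CPM in tumor. All tumor values were higher (0.24 ± 0.10, adjusted p 0.170), and DESeq2 called it (adjusted p 0.0295). Rps19 and Rps24, which are mutated in Diamond-Blackfan anemia, had log2 fold changes of 0.00 and 0.05.

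Within the 60S proteins the range was similar. Rpl41, a peptide of the subunit interface, was at 1076, 712 and 819 CPM in control and 664, 690 and 619 CPM in tumor. The groups did not overlap (log2 fold change -0.40 ± 0.17, adjusted p 0.160 by edgeR), and the value was -0.20 without control replicate 1. Rpl5, which binds 5S rRNA together with Rpl11 and can restrain Mdm2, was at 720, 755 and 703 CPM in control. It was at 871, 906 and 846 CPM in tumor, above every control library (0.27 ± 0.09, adjusted p 0.107). DESeq2 called Rpl5 (adjusted p 0.0049). Its partner Rpl11 was at 659, 526 and 590 CPM in control and 501, 587 and 517 CPM in tumor, and overlapped (-0.14 ± 0.12, adjusted p 0.469). After correction for length, Rpl5 was at 0.53 and Rpl11 at 0.16, both above 0. The difference between the 2 partners was not tested. Rpl22, a 60S protein dispensable for translation, had 0.14, and Rpl10 had -0.00.

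The P-stalk recruits the elongation factors. Rplp0, its base, was at 1665, 1316 and 1522 CPM in control and 1314, 1552 and 1440 CPM in tumor. Rplp1 was at 754, 585 and 627 CPM in control and 622, 681 and 601 CPM in tumor. Rplp2 was at 314, 265 and 282 CPM in control and 278, 332 and 293 CPM in tumor. The groups overlapped in all 3, with log2 fold changes of -0.07, -0.05 and 0.07 and adjusted p of 0.776, 0.840 and 0.717 by edgeR. Other members whose groups did not overlap, named after their values were seen, were Rpl3, Rpl12, Rpl21, Rpl26, Rpl30, Rps3a1, Rps23 and Rps27a with higher tumor values and Rpl7a, Rpl29 and Rpl38 with lower ones.

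Members differ in base composition, and their fold changes were ordered by it. Over the 76 canonical members, Spearman's rho between fold change and transcript GC content was -0.48, and over 15379 genes it was -0.33. These are correlations across genes of the same 6 libraries and describe them only. In the 26 members of lowest GC content (41.3% to 49.7%), 19 had a fold change above 0 and the median was 0.07. In the 25 of highest GC content (54.6% to 60.8%), 4 were above 0 and the median was -0.06. Rpl5 and Rps4x lie in the first group, Rpl41 and Rps2 in the last, while Rps26 has a low GC content and a low fold change.

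The libraries themselves differed by base composition and length along the line of the groups. Over all genes, each gene's log2 level was taken as a deviation from its mean over the libraries. The deviations, which compare libraries and not genes, were fitted on GC content and gene length together. The slope on GC content, per 10 percentage points, was 0.18, 0.04 and 0.08 in control replicates and -0.15, -0.04 and -0.11 in tumor replicates. The slope per doubling of gene length was -0.14, -0.02 and -0.08 in control and 0.07, 0.09 and 0.07 in tumor. These slopes and the condition cannot be told apart. Members are short, with a median effective length of 635 bases against 2841 for all genes tested. A correction for length raised the members' median log2 fold change from -0.02 to 0.29, with 77 of 87 above 0, while the median over all genes became 0.01. It left 2 members called, both higher (Rps27rt and Rps27a), where 1.65% of all genes were called. A correction for GC content gave a median of 0.04, and one for both gave 0.32. After both corrections no member was called, against 0.904% of all genes, and 55 of 83 members had an unadjusted p under 0.05, against 23% of all genes.

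**Figure D4:**
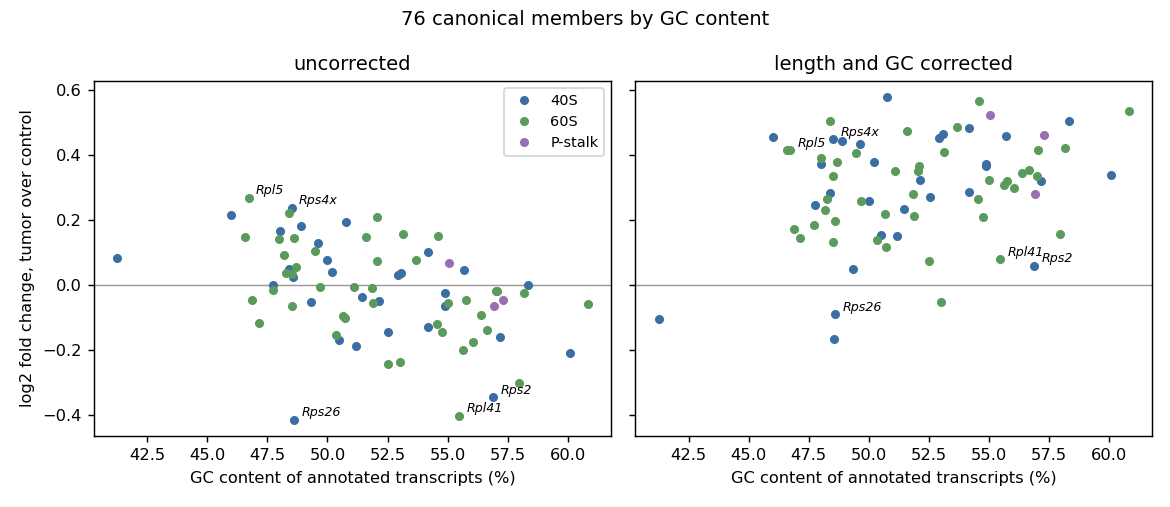
Log2 fold change, tumor over control, of the 76 canonical members against the GC content (percent) of their annotated transcripts, uncorrected (left) and after correction for gene length and GC content (right). The uncorrected values fall with GC content (Spearman's rho -0.48), and the corrected values lie mostly above 0.

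Alternative transcripts were compared in the 13 members with at least 500 counts on average and a second transcript holding at least 5% of them. Rps10, a 40S protein of the subunit's head, showed the widest separation. Its leading transcript took 52.7%, 50.0% and 53.3% of its counts in control and 68.5%, 63.4% and 59.6% in tumor. All tumor shares were higher, by 11.9 percentage points on average, while the gene's own level overlapped (log2 fold change -0.16 ± 0.13, adjusted p 0.465 by edgeR). The leading transcript of Rpl30 took 92.8%, 93.1% and 92.8% in control and 95.8%, 94.2% and 94.0% in tumor. That of Rpl22 took 90.6%, 93.7% and 95.4% in control and 83.4%, 89.6% and 88.5% in tumor, all lower. In these 3 members the two-sided exact permutation test gave 0.10, the smallest p that 3 against 3 can reach, and 0.433 after Benjamini-Hochberg adjustment over 13 members. The other 10 overlapped. Shares in Rpl19, Rpl6, Rps21 and Rpl22l1 varied widely between libraries of the same group, from 55.1% to 91.1% among the tumor libraries for Rpl22l1.

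**Figure D5:**
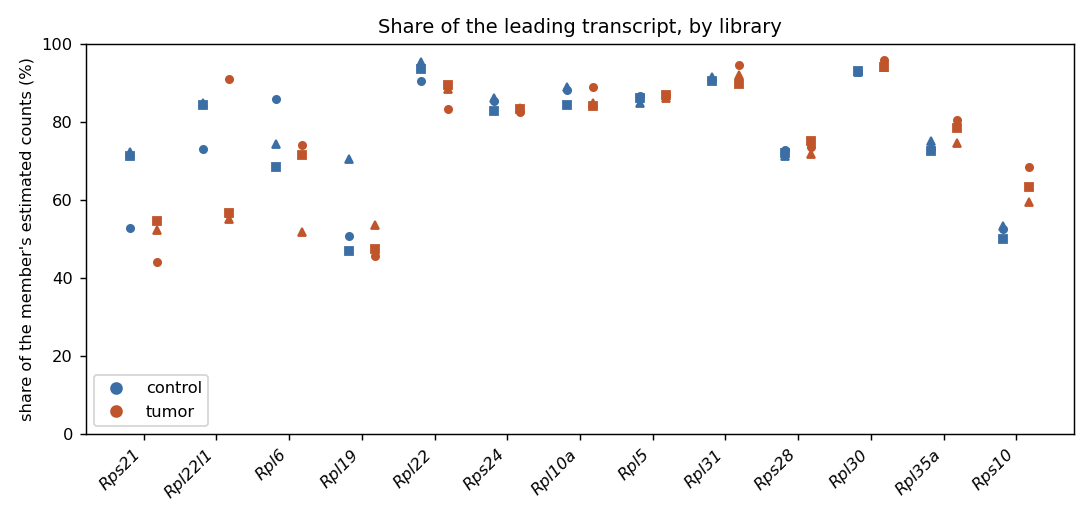
Share of a member's estimated counts held by its leading transcript (percent) in each control and tumor library, for 13 members ordered by the difference between groups. Rps10 and Rpl30 lie higher and Rpl22 lower in all tumor libraries, and the other 10 members overlap.

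Genes that work with the ribosomal proteins were read from lists of names. Outside the symbol rule, the 40S protein genes Fau and Rpsa did not pass edgeR's test, with log2 fold changes of -0.09 ± 0.12 (adjusted p 0.648) and -0.03 ± 0.12 (adjusted p 0.905). None of 16 genes with TOP mRNAs, mostly translation factors, passed, with a median of -0.03. Nap1l1, a nucleosome assembly protein (0.28 ± 0.09, adjusted p 0.103), Hnrnpa1, a splicing regulator (0.30 ± 0.12, adjusted p 0.146) and Eif4b, a helicase cofactor (0.24 ± 0.10, adjusted p 0.182) had the smallest p.

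Few genes for making rRNA and assembling ribosomes passed the test. None of 16 genes of RNA polymerase I and its factors passed, 12 were above 0, and the median log2 fold change was 0.15. Twistnb, a polymerase I subunit, was at 19.8 ± 2.26 CPM in control and 28.3 ± 2.06 in tumor (SD, n = 3), with an adjusted p of 0.0576 by edgeR. Taf1d and Taf1a, subunits of the promoter factor SL1, had adjusted p of 0.0615 and 0.0621. Of 30 nucleolar assembly factors, Wdr43 rose, none fell and 22 were above 0, with a median of 0.08. That 1 of 30 is near the 3.8% of all genes called higher. Wdr43, a small-subunit processome protein, was at 51.5 ± 4.38 CPM in control and 75.6 ± 7.23 in tumor (log2 fold change 0.55 ± 0.11, adjusted p 0.0408 by edgeR). Dkc1, the pseudouridine synthase (0.55 ± 0.13, adjusted p 0.0556), and Gtpbp4, a 60S assembly GTPase (0.45 ± 0.14, adjusted p 0.0848), did not pass.

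Of 13 regulators of ribosomal protein synthesis, 2 rose and none fell, against 3.8% and 3.91% of all genes, with a median log2 fold change of 0.25. Larp4, a poly(A)-binding protein, was at 54.5 ± 9.37 CPM in control and 95.7 ± 13.1 in tumor (0.81 ± 0.16, adjusted p 0.0410 by edgeR). Mycl, a Myc-family transcription factor, was at 55.7 ± 16.7 CPM in control and 113 ± 9.77 in tumor (1.02 ± 0.21, adjusted p 0.0439). Rps6kb1, the S6 kinase downstream of mTOR, had 0.42 ± 0.10 (adjusted p 0.0586). Among the 11 genes excluded by the symbol rule, which are 10 S6 kinase genes and Rps19bp1, Rps6ka5 rose (0.74 ± 0.15, adjusted p 0.0436), none fell, and Rps6ka3 had 0.38 ± 0.09 (adjusted p 0.0527). After correction for length, the adjusted p of Wdr43, Larp4, Mycl and Rps6ka5 were 0.0707, 0.0903, 0.0658 and 0.105. All 12 oocyte markers had fold changes above 0 in the same libraries, with summed levels of 331 to 451 unscaled CPM in control and 550 to 721 in tumor. Summed luteal markers were at 14629 to 15332 in control and 2719 to 8277 in tumor. Their part in these values was not tested. Without control replicate 1, or without tumor replicate 3, edgeR called 0 of all genes tested, these included, with 3137 and 3761 at an unadjusted p under 0.05.

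The 5 genes outside the rule whose log2 CPM most resembled the members' mean over the 6 libraries were Fau, Gatd1, Smim26, Rpusd3 and Golga2, with Pearson's r between 0.978 and 0.996. Fau, which encodes the ribosomal protein S30 fused to a ubiquitin-like protein, was at 484, 377 and 416 CPM in control and 384, 431 and 382 CPM in tumor. Like the members' mean, it was highest in control replicate 1. These 5 were the highest of all tested genes over 6 points, which share the libraries with the members.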

How the data were processed

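Ovarian RNA of 3 control and 3 tumor-bearing samples was sequenced as single-end reads of 50 bases, per the labels' protocols. HISAT2 2.0.4, Bowtie2 2.2.5, RSEM 1.2.12 and GRCm38.p6 are named, without roles, in the submitters' processing notes. The authors deposited estimated counts, FPKM and TPM per gene, and estimated counts and FPKM per transcript, per the file headers. The authors' deposited comparison gives log2 fold changes with p-values and q-values from DESeq2, per the file headers. A further 24 per-sample columns were not used. RNA selection and strandedness: not given in the sources used here.

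Estimated counts were rounded and fitted with edgeR 4.0.16 in R 4.3.3 (filterByExpr by group, TMM factors, robust quasi-likelihood F test, Benjamini-Hochberg over all 15787 genes, threshold 0.05). CPM are scaled by TMM. SE is the absolute log2 fold change divided by the square root of F. Alternatives were DESeq2 1.42.0, limma 3.58.1 on log2(FPKM + 1), other scalings, no filter, length, GC and marker covariates, a replicate block and leaving out each library. The fit was tested on simulated data.

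Members and lists were chosen with earlier results of these data known. Named genes are the 6 highest and 4 lowest members by FPKM, called members, the 4 largest fold changes in each direction, paralogs and copies, 10 members of known role, up to 3 genes per list by p, and the 5 genes most like the members' mean. Others were chosen after their values were seen, among them Rps2, Rpl10a and those named for their transcript shares. GC content came from GENCODE M21 transcripts (GRCm38), and start-site sequences from RefSeq (GRCm38.p6). Some individual genes are not reported here. The main fit did not pair samples by replicate number, and the labels state no pairing. Correlations of same-numbered deviations were 0.24, -0.21 and 0.53.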

Additional observations from a re-analysis of the deposited data

How the results depend on the processing

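The members' count share difference stayed within the libraries' spread without copies and without Rpl4, the most abundant member. As a TPM share it did not (1.25 percentage points in place of 0.12). The count share difference ran from -0.02 to 0.30 percentage points when 1 library was left out, highest without control replicate 1. The members' median log2 fold change of -0.02 moved beyond the spread with the length correction (0.29), the length and GC correction (0.32), and these with the replicate block (0.28 and 0.32). Leaving out 1 library gave -0.05 to 0.08. Called members numbered 1 in the main analysis, 8 with DESeq2, 2 with library totals, with limma on FPKM and with the length correction, and 0 with the adipocyte covariate, the length and GC correction and all 4 fits with a replicate block. Leaving out 1 library gave 0 to 2. Over all genes, 1217 were called in the main analysis, 3029 with DESeq2, 2530 with the oviduct covariate, 569 with the GC correction, 260 with length, 139 with both and 0 with the adipocyte covariate (2540 at an unadjusted p under 0.05) or the replicate block (4233), and 0 to 2605 when 1 library was left out. GC corrections were chosen after seeing the data. Members above 0 numbered 38 in the main analysis and 77 with the length correction. Among 20 members followed singly, log2 fold changes turned positive after length correction in Rpl29 (0.029; 0.024 with the block), Rps6-ps4 (0.25; 0.24) and Rpl36al (0.14; 0.14), and after length and GC correction in Rpl41 (0.080; 0.080), Rps2 (0.059; 0.058), Rpl29 (0.16; 0.16) and Rpl36al (0.14; 0.14). Leaving out 1 library, Rps6-ps4 ran from -0.098 to 0.011, the latter without control replicate 1. The cause was not tested. The same 3 members had transcript shares without overlap in counts and in FPKM. Not every library correlated best with its own number, and so few libraries cannot settle whether same-numbered samples shared a source. Depth limits Rpl34-ps1, Rps23rg1 and Rpl39l, with under 30 counts a library.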
